A study of Mus musculus with 12 samples.

Results

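The immunity-related GTPases (IRGs) were followed in IEC4.1 cells through an IFN-γ response with and without knockdown of the lncRNA Nostrill. The study describes IEC4.1 as an intestinal epithelial line from newborn mice. The genes were taken by symbol: Igtp, Irgm1, Irgm2, Iigp1, Tgtp1, Tgtp2, Gm4841 and Gm12185, which are 8 of the 15002 genes in the deposited tables. All of them were found, and Tgtp1 and Tgtp2 were also read as a sum because they are near copies of each other. RNA was sequenced in 4 groups of 3 libraries. siR_Ctrl cells had received a scrambled siRNA and siR_Nostrill cells a pool of 3 siRNAs against Nostrill, and no group was left untransfected. Cells of each kind were collected without IFN-γ or after IFN-γ (siR_Ctrl + IFN-γ and siR_Nostrill + IFN-γ). A figure legend of the study gives 1 ng/ml IFN-γ for 4 h. The methods give 24 h of transfection before IFN-γ, and the sample labels give a time of 24 h for every library. The cells are 1 cultured line, and the methods describe the libraries of a group as biological replicates. Nostrill is not among the genes analysed here, so the knockdown was not checked.

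IRGs are GTPases of about the same size that IFN-γ induces strongly in mouse cells, where they defend the cell against parasites and bacteria that live inside a vacuole. The effector IRGs, which include the products of Iigp1 (Irga6) and of Tgtp1 and Tgtp2 (Irgb6), load onto the membrane of the vacuole and help to break it. The regulatory IRGs, Irgm1, Irgm2 and Igtp (Irgm3), sit on the membranes of the cell and keep the effectors inactive there. Promoters of IFN-γ target genes carry gamma-activated sites (GAS) and interferon-stimulated response elements (ISRE), and IRF1 is among the factors that bind the latter.

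Both kinds of element stood side by side in the promoters of 5 members, and these short stretches are shown because those members share them and because the study assayed the Igtp promoter. Windows from 250 bases before to 50 bases after the RefSeq start site (GRCm38.p6) were available for 6 members, Irgm1, Igtp, Irgm2, Tgtp1, Tgtp2 and Gm12185. They were searched on both strands for the GAS letters TTCNNNGAA and for an ISRE core, which is GAAA, 2 bases of any kind and GAAA. The GAS letters were found in 5 of these 6 windows, against 8.30% of the 32851 promoter windows in the table, and the ISRE core in 6 of 6, against 3.44%. In those 5, the ISRE core began 2 bases after the GAS. A GAS followed on the same strand by an ISRE core at most 10 bases away, a distance chosen after these windows had been read, was present in 15 windows of the whole table (0.0457%), including these 5. The Irgm1 window held 2 overlapping ISRE cores and no match to the GAS letters. In the stretches below, each 5′ to 3′ on the strand of the gene, capitals mark the GAS and the ISRE core.
Igtp, chr11:58199502-58199536, plus strand: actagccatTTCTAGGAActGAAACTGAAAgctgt
Irgm2, chr11:58214893-58214927, plus strand: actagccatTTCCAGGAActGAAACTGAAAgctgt
Tgtp1, chr11:48992309-48992343, minus strand: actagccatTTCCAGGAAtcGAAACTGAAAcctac
Tgtp2, chr11:49064268-49064302, minus strand: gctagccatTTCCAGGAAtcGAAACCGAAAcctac
Gm12185, chr11:48927243-48927277, minus strand: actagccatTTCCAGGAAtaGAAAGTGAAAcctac
Irgm1, chr11:48871430-48871469, minus strand: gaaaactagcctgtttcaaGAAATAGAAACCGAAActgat

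The element lay close to the start site in each window. The ISRE core began at base -34 for Igtp and, for the one nearer the start, at -24 for Irgm1. It began at -64, -77, -70 and -75 for Irgm2, Tgtp1, Tgtp2 and Gm12185. The 250 bases before the Igtp start (chr11:58199306-58199555, plus strand) are given in full because the Igtp promoter is the IRG promoter that the study assayed, with the same capitals.
Igtp: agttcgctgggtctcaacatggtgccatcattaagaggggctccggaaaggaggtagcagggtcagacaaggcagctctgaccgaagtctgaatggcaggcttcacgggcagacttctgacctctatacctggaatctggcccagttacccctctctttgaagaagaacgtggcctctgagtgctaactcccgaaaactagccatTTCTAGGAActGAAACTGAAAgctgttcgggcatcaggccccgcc
The Igtp window was 92.1% identical to the Irgm2 window over 265 aligned bases, and the Tgtp2 window was 96.6% identical to the Gm12185 window over 295. One of the primer pairs with which the study read this site by chromatin immunoprecipitation, set 6, is shown because it matched the Irgm2 promoter exactly as well. On either gene it would span 127 bases.
Igtp set 6, sense: AACTCCCGAAAACTAGCCAT
Igtp set 6, antisense: TGTTGGCCCAGATGTAAGT
The RT-PCR pair for Igtp, in contrast, matched transcripts of Igtp and of no other gene in the GENCODE vM21 transcripts of the GRCm38 assembly, with a product of 186 bases.
Igtp RT-PCR, sense: ACTCCAGAGCGTTCACTCA
Igtp RT-PCR, antisense: AGCAGTCATAGATTTAGACCACG

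Libraries were of similar depth, with 17824306 to 19093204 reads counted on genes. A read assigned to several genes was divided between them in the deposited counts, which are estimates. The 8 IRG genes together held 0.0025% to 0.00354% of a library's reads without IFN-γ and 0.262% to 0.288% with it. Levels are given as FPKM, which scales reads for transcript length and library size. Differences were tested on the counts of all 12 libraries by the quasi-likelihood test of edgeR, with Benjamini-Hochberg adjustment over the 11900 genes tested and a threshold of 0.05, and p-values measure the spread between these libraries. The labels call the cells intestinal epithelial. Of 10 epithelial markers, 4 were in the tables: Tjp1 (4.8 to 16 FPKM), Krt19 (0.91 to 2.76), Krt8 (at most 0.28) and Krt18 (at most 0.1). The 6 intestinal markers summed to at most 0.27 FPKM in a library, and Cdx2 and Vil1 were at most 0.03 and 0.07. All 6 fibroblast markers were above 1 FPKM in every group, led by Col1a1 (176 to 315), and their sum of 380 to 674 FPKM overlapped between all groups. The summed macrophage and leukocyte markers, mostly Cd14, were 16.1 to 19.4 FPKM in siR_Ctrl libraries and 19 to 21.9 in siR_Nostrill libraries, with Ptprc at most 0.01. The part of these cells' markers in the IRG levels was not tested. Since RNA came from bulk cultures, more cells responding and more RNA per cell cannot be told apart.

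All 8 IRG genes rose with IFN-γ in siR_Ctrl cells and all 8 rose in siR_Nostrill cells. Of all genes tested, 4.71% were called higher in the former comparison and 5.24% in the latter, and 5.45% and 6.78% were called in either direction. The median log2 fold change of the members was 8.61 in siR_Ctrl cells and 9.82 in siR_Nostrill cells, where the medians over all genes were -0.01 and 0.00. Without siR_Ctrl replicate 3 the former was 9.53, and by limma on log2(FPKM + 1) the medians were 5.94 and 6.03, so no difference between the siRNA groups is read from them. Of the 8, 5 were near 0 at rest and entered the test through their level with IFN-γ, so for them a difference follows from having been tested.

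Among the regulatory IRGs, Irgm1 had the highest resting level and the smallest fold change. Its FPKM was 9.84, 9.69 and 10.4 in the siR_Ctrl libraries and 272, 238 and 259 in the siR_Ctrl + IFN-γ libraries. In siR_Nostrill cells it was 10.3, 10.9 and 12.4 without IFN-γ and 310, 301 and 286 with it. The groups with and without IFN-γ were far apart, and the log2 fold changes were 4.74 (standard error, SE, 0.09, adjusted p = 5.58e-11, edgeR) and 4.73 (SE 0.09, adjusted p = 5.66e-11, edgeR), or 26.8-fold and 26.5-fold.

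Igtp reached the highest level of the family. It stood at 1.91, 1.9 and 3.65 FPKM in siR_Ctrl cells and at 527, 556 and 483 FPKM in siR_Ctrl + IFN-γ cells. In siR_Nostrill cells it stood at 4.36, 3.12 and 3.66 FPKM and with IFN-γ at 444, 471 and 479 FPKM. The resting siR_Ctrl libraries split into 2 low values and 1 higher value, that of replicate 3. The log2 fold change was 7.79 in siR_Ctrl cells (SE 0.27, adjusted p = 4.01e-09, edgeR), a 222-fold difference with a 95% interval from 147 to 334. It was 6.94 in siR_Nostrill cells (SE 0.26, adjusted p = 7.3e-09, edgeR), a 123-fold difference with an interval from 83.1 to 182. Without siR_Ctrl replicate 3 the log2 fold change in siR_Ctrl cells was 8.17.

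Irgm2, whose gene lies next to Igtp, was lower throughout. It had 0.81, 0.78 and 1.02 FPKM in siR_Ctrl cells and 95.5, 72.1 and 103 FPKM after IFN-γ. In siR_Nostrill cells it had 1, 1.31 and 1.34 FPKM, and 106, 103 and 85.2 FPKM after IFN-γ. The lowest treated library, siR_Ctrl + IFN-γ replicate 2, was the one with the highest Igtp. The log2 fold changes were 6.75 (SE 0.17, adjusted p = 3.96e-10, edgeR) and 6.31 (SE 0.16, adjusted p = 4.34e-10, edgeR), that is 108-fold and 79.3-fold.

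The remaining members, which include the effectors Iigp1, Tgtp1 and Tgtp2, were close to absent at rest and reached 11.1 to 141 FPKM after IFN-γ. Against such low levels a fitted fold change depends on the prior count of the test, so the ratio of pooled CPM, counts scaled to the library total, is given for them instead, with an exact 95% interval that covers counting error only. Reads of a PCR-amplified library are not independent molecules, and the spread between libraries is left out, so the true intervals are wider. No difference between the siRNA groups is read from these ratios.

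Iigp1, the best studied effector, had no read in 2 siR_Ctrl libraries and 0.32 FPKM (16 reads) in siR_Ctrl replicate 3. With IFN-γ it had 91.1, 74.2 and 90.5 FPKM in siR_Ctrl cells and 96.9, 109 and 92.4 FPKM in siR_Nostrill cells. In siR_Nostrill cells without IFN-γ it had 0.06, 0.06 and 0.04 FPKM, 2 to 3 reads a library. The pooled ratio was 814 in siR_Ctrl cells (interval 501 to 1425) and 1909 in siR_Nostrill cells (969 to 4422). Leaving out siR_Ctrl replicate 3 left no resting read, and with a floor of 3 reads over the group the level was at least 2908-fold higher with IFN-γ. The edgeR call had an adjusted p of 1.12e-07 in siR_Ctrl and 9.57e-08 in siR_Nostrill cells.

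Tgtp1 and Tgtp2 were read together first, since 80.0% of the 100-base windows of the longest coding Tgtp1 transcript also occurred in a Tgtp2 transcript. Their summed FPKM was 0, 0.04 and 1.02 in siR_Ctrl cells and 270, 229 and 223 in siR_Ctrl + IFN-γ cells. In siR_Nostrill cells the sum was 0.02, 0.04 and 0.09, and 260, 258 and 245 with IFN-γ. The 47 reads of siR_Ctrl replicate 3 made up almost all of the 49 resting reads in siR_Ctrl cells. The pooled ratio was therefore 686 (519 to 928) with that library and 11258 (3116 to 92964) without it, against 5092 (2471 to 12666) in siR_Nostrill cells. Summed to 1 row, the pair was called with an adjusted p of 2.17e-06 in siR_Ctrl cells and 1.33e-06 in siR_Nostrill cells (edgeR).

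Read apart, Tgtp1 had 129, 114 and 107 FPKM in siR_Ctrl + IFN-γ cells and 136, 137 and 128 FPKM in siR_Nostrill + IFN-γ cells. Tgtp2 had 141, 115 and 117 FPKM and 123, 120 and 117 FPKM in the same groups. Each was called in both comparisons, with adjusted p from 1e-07 to 5.47e-07 (edgeR). Without IFN-γ, Tgtp1 had 0, 0.04 and 0.49 FPKM in siR_Ctrl cells and at most 0.06 in siR_Nostrill cells, and Tgtp2 had 0, 0 and 0.53 FPKM and at most 0.03. The Tgtp2 ratio in siR_Nostrill cells, 12690, rested on 1.33 resting reads and had an interval from 3029 to 666652.

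Gm4841 and Gm12185 are less studied members named by their gene models. Gm4841 was the steadiest member with IFN-γ in siR_Ctrl cells, at 23.4, 22.8 and 22.7 FPKM (coefficient of variation 1.63%, against 6.55% to 17.7% for the others). In siR_Nostrill + IFN-γ cells it was at 24, 24.5 and 22.3 FPKM, where its coefficient of variation of 4.93% was above those of Tgtp2, Tgtp1, Igtp and Irgm1 (2.61% to 4.06%). At rest it had 0, 1 and 4 reads in siR_Ctrl and 1, 2 and 1 reads in siR_Nostrill libraries. Its pooled ratios were 648 (277 to 1996) and 835 (326 to 3068), with adjusted p of 1.89e-09 and 2.08e-09 (edgeR). Without siR_Ctrl replicate 3, which held 4 of the 5 resting siR_Ctrl reads, the former was 2168 (389 to 85654).

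Gm12185 was the lowest member with IFN-γ, at 13.9, 11.1 and 13.8 FPKM in siR_Ctrl and 15.3, 13 and 12.2 FPKM in siR_Nostrill cells. Its resting reads were 3, 4.66 and 7.01 in siR_Ctrl and 0.64, 1.23 and 1.02 in siR_Nostrill libraries. The pooled ratios were 242 (143 to 423) and 1287 (424 to 6012), and the adjusted p were 3.17e-10 and 2.98e-10 (edgeR).

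**Figure D1:**
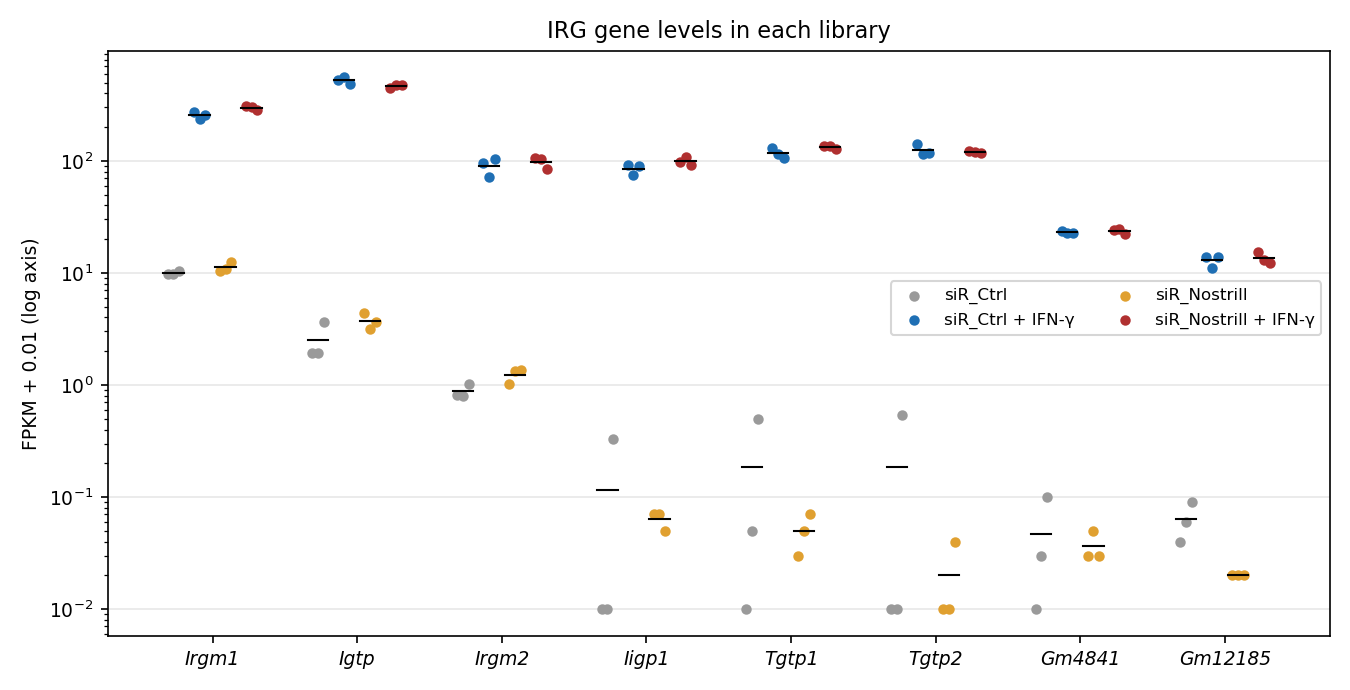
FPKM of each IRG gene in each of the 12 libraries on a log axis, with 0.01 added so that values of 0 can be drawn; points are libraries and bars are means of 3. Without IFN-γ the regulatory genes Irgm1, Igtp and Irgm2 lie between 0.78 and 12.4 FPKM and the other 5 genes at or below 0.53, while with IFN-γ every gene lies at 11.1 or above.

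IFN-γ changed the order of the family. Without it the order was Irgm1, Igtp, Irgm2 in both siRNA groups, with no overlap of FPKM ranges between these neighbours or between Irgm2 and the next gene. The ranges of the remaining 5 overlapped from one neighbour to the next. With IFN-γ, Igtp was above Irgm1 in 6 of 6 libraries, and next came the Tgtp pair, Irgm2 and Iigp1, Gm4841 and Gm12185. Irgm2 and Iigp1 overlapped in both treated groups, and Tgtp1 and Tgtp2 overlapped in siR_Ctrl + IFN-γ cells. In siR_Nostrill + IFN-γ cells Tgtp1 was above Tgtp2 without overlap, although most of their sequence is shared.

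Read as shares of the summed FPKM of the 8 genes, Irgm1 made up 72.8% ± 8.79 of the family in siR_Ctrl cells and 20.8% ± 0.937 with IFN-γ (SD, n = 3 each). Igtp went from 17.5% ± 3.95 to 42.5% ± 3.24 (SD, n = 3 each). In siR_Nostrill cells Irgm1 made up 68.8% ± 2.90 and 23.9% ± 0.703, and Igtp 22.9% ± 4.07 and 37.1% ± 1.92 (SD, n = 3 each). The summed FPKM was 13.9 ± 2.32 in siR_Ctrl and 16.3 ± 1.10 in siR_Nostrill cells, and with IFN-γ it was 1230 ± 53.7 and 1253 ± 28.6 (SD, n = 3 each). The treated ranges overlapped, from 1195 to 1292 and from 1222 to 1279. In siR_Ctrl replicate 3 Irgm1 made up 62.7% and the sum was 16.6, where the other 2 siR_Ctrl libraries had 77.6% and 78.2%, and 12.5 and 12.6. These shares are a description without a test.

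**Figure D2:**
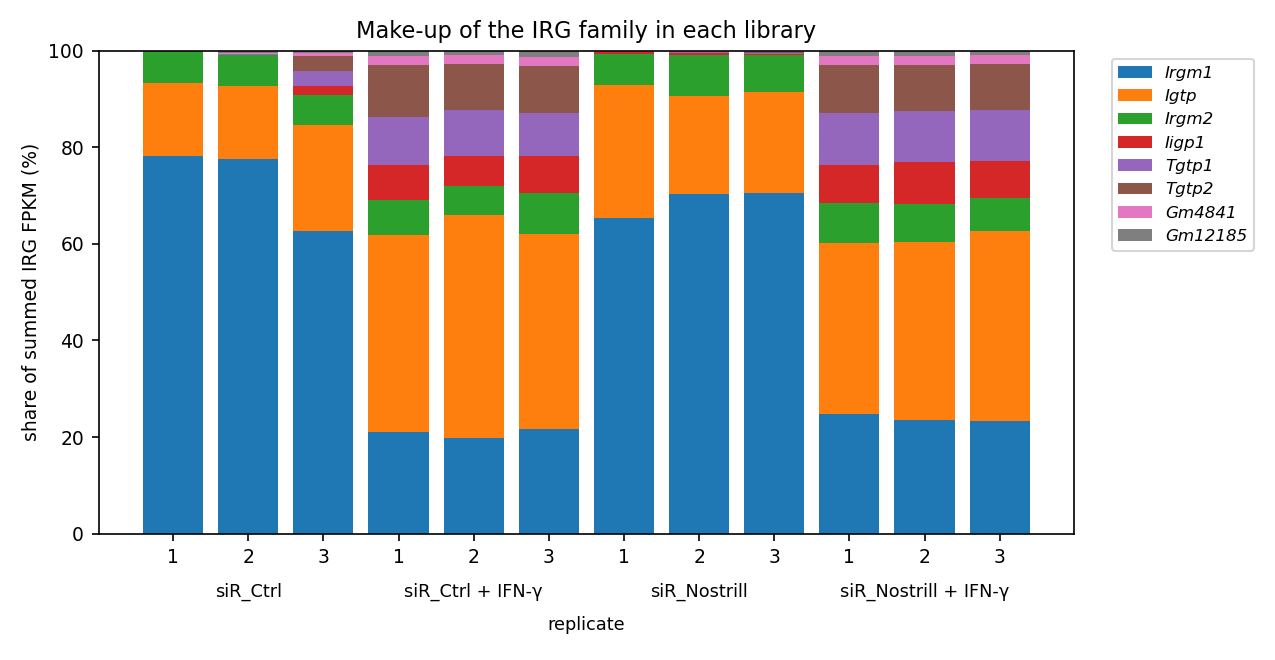
Share of each IRG gene in the summed FPKM of the 8 genes, in percent, in each of the 12 libraries grouped by condition. Irgm1 fills 62.7% to 78.2% of the bar in siR_Ctrl libraries, and with IFN-γ Igtp is the largest part in every library, from 35.4% to 46.2%.

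The siR_Ctrl library of replicate 3 stood apart from the other resting libraries in the low members. It held 16 reads of Iigp1, 22.4 of Tgtp1, 24.6 of Tgtp2 and 4 of Gm4841, where the other 2 siR_Ctrl libraries held 0 to 2 and the siR_Nostrill libraries 0 to 3. Igtp had 117 reads there against 61.2 and 62.4, Irgm1 366 against 341 and 351, and Irgm2 60 against 47.8 and 46.6. These regulatory genes did not stand apart from the siR_Nostrill libraries, which held 100 to 141, 365 to 444 and 58.9 to 81.3 reads. For the 8 members, the excess of that library over the mean of the other 2 was 0.253% to 0.428% of the mean siR_Ctrl + IFN-γ level, in CPM. Outside the family, 21 genes had been called higher with a log2 fold change above 5 in siR_Nostrill cells, whose groups do not hold this library. Among the siR_Ctrl libraries, 13 of these were highest in replicate 3, 3 in replicate 1 and 4 in replicate 2, with a tie for the remaining gene. Their median excess was 0.452% of the IFN-γ level, with quartiles of 0 and 0.597%. What set this library apart was not tested, and whether reads or RNA of an IFN-γ-treated library are part of it was not tested either. Resting siR_Ctrl levels and the fold changes against them include this library unless stated.

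**Figure D3:**
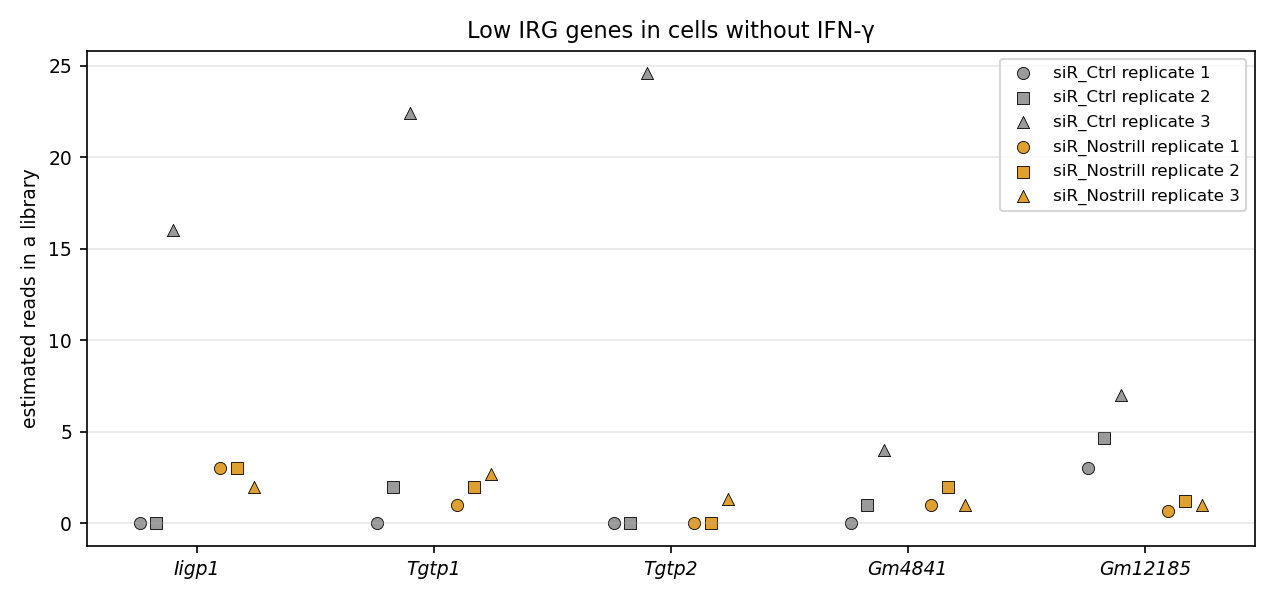
Estimated reads of the 5 low IRG genes in each of the 6 libraries without IFN-γ; colours are siRNA groups and symbols are replicates. In siR_Ctrl replicate 3, Iigp1, Tgtp1 and Tgtp2 lie at 16 to 24.6 reads, and in the other resting libraries these 3 genes lie at 0 to 3.

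The question of the study for Igtp was whether Nostrill knockdown alters its response to IFN-γ. With IFN-γ, none of the 8 members was called between the siRNA groups by edgeR, DESeq2 or limma, and 1 of them, Irgm1, had an unadjusted p under 0.05 in edgeR, as did 1730 of the 11900 genes. Of all genes tested, edgeR called 0.429%, DESeq2 596 of 10923, and limma 111 of 11900 with a pseudocount of 1. The log2 fold changes of the members ran from -0.23 to 0.17 with a median of 0.04, and the median over all genes was 0.00.

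In FPKM, Igtp was lower in each siR_Nostrill + IFN-γ library than in any siR_Ctrl + IFN-γ library. In CPM the groups overlapped, at 793 to 862 in siR_Nostrill + IFN-γ and 860 to 999 in siR_Ctrl + IFN-γ libraries. Its 3 FPKM values in siR_Nostrill + IFN-γ libraries, 444 to 479, lay just below the 483 to 556 of the siR_Ctrl + IFN-γ libraries. The log2 fold change was -0.23 (SE 0.19, 95% interval -0.66 to 0.19, adjusted p = 0.634, edgeR), that is 0.851-fold with an interval from 0.633 to 1.14. Over the alternatives the adjusted p lay between 0.302 and 0.886. Irgm1 moved the other way, with 286 to 310 FPKM above 238 to 272. Its log2 fold change was 0.17 (SE 0.07, interval 0.01 to 0.32, unadjusted p = 0.0428 and adjusted p = 0.321, edgeR), and over the alternatives its adjusted p lay between 0.0748 and 0.626. Iigp1 was the only other member whose FPKM groups did not overlap, at 92.4 to 109 against 74.2 to 91.1, with a log2 fold change of 0.17 (interval -0.47 to 0.80, adjusted p = 0.840, edgeR). FPKM groups without overlap were found for 3 of 8 members here and for 22.9% of all genes tested.

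The remaining 5 members overlapped between the groups in FPKM. In CPM Tgtp1 did not, at 332 to 355 in siR_Nostrill + IFN-γ and 274 to 330 in siR_Ctrl + IFN-γ libraries. The share of all genes without overlap in CPM was not counted, and in FPKM it was 22.9%. The log2 fold change was 0.07 for Irgm2 (interval -0.20 to 0.33) and 0.02 for the Tgtp sum (-0.93 to 0.97). Read apart, Tgtp1 gave 0.14 (-0.52 to 0.80) and Tgtp2 -0.11 (-0.89 to 0.67). Gm4841 was at -0.02 (-0.35 to 0.31) and Gm12185 at 0.01 (-0.24 to 0.25). The signs of the Irgm2, Gm4841 and Gm12185 values changed under some alternatives. These intervals leave room for changes of about the sizes at their ends, so the members are not shown to be alike in the siRNA groups.

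Since Igtp and Irgm1 moved in opposite directions, their ratio within a library was also read, a comparison chosen after the values had been seen. The Igtp to Irgm1 FPKM ratio was 1.94, 2.34 and 1.87 in siR_Ctrl + IFN-γ cells and 1.43, 1.56 and 1.67 in siR_Nostrill + IFN-γ cells. Every siR_Nostrill library was below every siR_Ctrl library. This follows from the opposite separation of the 2 genes in FPKM, so no p is given for it. Without IFN-γ the ratio was 0.194, 0.196 and 0.352 in siR_Ctrl and 0.421, 0.287 and 0.296 in siR_Nostrill cells, where the groups overlapped.

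**Figure D4:**
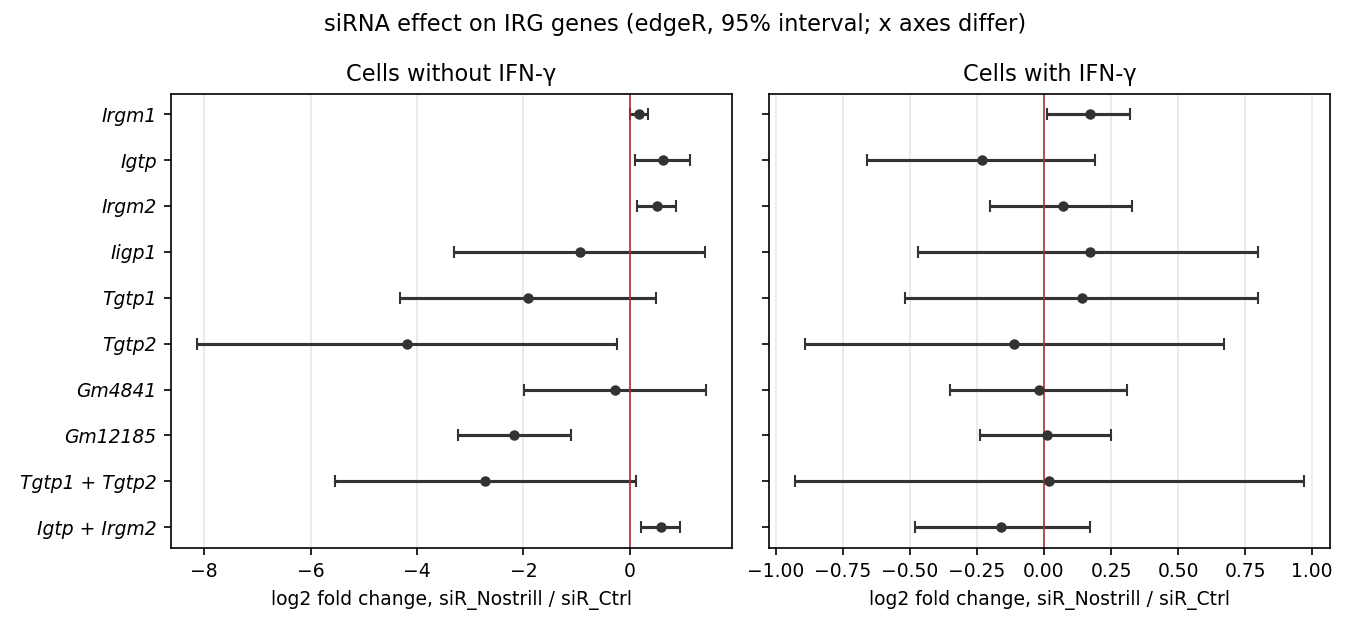
Log2 fold change of siR_Nostrill over siR_Ctrl for each IRG gene and for the sums Tgtp1 + Tgtp2 and Igtp + Irgm2, without IFN-γ (left) and with IFN-γ (right), on x axes of different range; points are edgeR estimates from 3 libraries a group and bars are 95% intervals. With IFN-γ all points lie between -0.23 and 0.17, and without it the points of the low genes reach -4.19 with wide intervals.

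Without IFN-γ, none of the 8 members was called between siR_Nostrill and siR_Ctrl cells by edgeR, DESeq2 or limma. Of all genes tested, edgeR called 0.218%, DESeq2 265 of 10342, and limma 25 of 11900 with a pseudocount of 1. In edgeR, 5 members had an unadjusted p under 0.05, as did 1643 of the 11900 genes. Of these 5, Tgtp2 and Gm12185 were tested only through their level with IFN-γ. The 3 regulatory IRGs were on the higher side in siR_Nostrill cells: Igtp by a log2 fold change of 0.62 (interval 0.10 to 1.14, adjusted p = 0.313, edgeR), Irgm2 by 0.51 (0.14 to 0.87, adjusted p = 0.262) and Irgm1 by 0.18 (0.01 to 0.35, adjusted p = 0.349). In each the FPKM ranges of the groups overlapped. Without siR_Ctrl replicate 3 the value for Igtp was 1, with an adjusted p of 0.0973 (edgeR), and over all alternatives its adjusted p lay between 0.0973 and 0.842.

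The remaining members had few resting reads. Their log2 fold changes were -0.94 for Iigp1, -1.91 for Tgtp1, -4.19 for Tgtp2, -0.27 for Gm4841 and -2.17 for Gm12185, with adjusted p from 0.191 to 0.859 (edgeR). Leaving out siR_Ctrl replicate 3 turned the first 4 of these to 4.49, 0.94, 1.88 and 1.25. Gm12185 stayed lower at -1.85 (adjusted p = 0.358, edgeR) and was the 1 member whose FPKM groups did not overlap, as for 17.1% of all genes tested. Its levels there were 0.03 to 0.08 FPKM in siR_Ctrl and 0.01 in each siR_Nostrill library, at most 7.01 reads. Fitted without the IFN-γ libraries, only Irgm1, Igtp and Irgm2 passed the filter on low counts.

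The interaction asks whether the IFN-γ response itself differed between the siRNAs. No gene of the 11900 was called (0%) by edgeR, DESeq2 or limma, and 1277 had an unadjusted p under 0.05 in edgeR. Among the members, Igtp and Gm12185 did. For Igtp the log2 fold change of IFN-γ was smaller by 0.85 in siR_Nostrill cells, an interaction of -0.85 (interval -1.52 to -0.18, unadjusted p = 0.0179, adjusted p = 0.430, edgeR). Most of it came from the resting side, where the siRNA difference was 0.62, and the treated side gave -0.23. Irgm2 had -0.44 (-0.89 to 0.01) and Irgm1 -0.02 (-0.25 to 0.21), the latter above 0 in 6 of the alternatives. The interaction of Gm12185 was 2.17 (1.08 to 3.26, unadjusted p = 0.00347, adjusted p = 0.430, edgeR), and it rests on the resting reads given above. By limma it was 0.12 and 0.53 with pseudocounts of 1 and 0.1, and the resting difference was -0.06 and -0.47. The values of Iigp1, Tgtp1, Tgtp2 and Gm4841 changed sign without siR_Ctrl replicate 3.

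Reads of neighbouring genes were shared in the deposited counts. Igtp and Irgm2 had counts that were not whole in 10 of 12 libraries, within a tolerance of 0.015, and their sum was whole in 12 of 12. Tgtp1 and Tgtp2 were not whole in 7 of 12, and their sum was whole in 12 of 12. Gm12185 was also not whole in 10 of 12, so its few resting reads are in part divided reads. Of the 100-base windows of the longest coding transcript, 5.67% of Igtp and 2.48% of Irgm2 occurred in the other gene, against 80.4% of Tgtp2 in Tgtp1. None of Irgm1 or of Iigp1 and 0.255% of Gm4841 occurred in another gene, and 5.40% of Gm12185 did, mostly in the IRG relative Gm5431. The effector pair is therefore the less certain when read apart.

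The split of a pair's reads also varied between libraries, and the part of divided reads in this was not tested. Igtp took 75%, 80.8% and 71.9% of the Igtp and Irgm2 reads in siR_Ctrl + IFN-γ libraries and 69.5%, 71.5% and 75.4% in siR_Nostrill + IFN-γ libraries, so the groups overlapped. The sum was 23271, 23594 and 22474 reads in siR_Ctrl + IFN-γ libraries and 20768, 21091 and 20631 in siR_Nostrill + IFN-γ libraries. Scaled to library size, the groups came closer, at 1196 to 1249 and 1141 to 1183 CPM, still without overlap. How many of all genes do not overlap in CPM was not counted. In FPKM it was 22.9%, so no siRNA effect is read from this separation. Tested as 1 row, an alternative added after the data had been seen, its log2 fold change was -0.16 (interval -0.48 to 0.17, adjusted p = 0.683, edgeR) with IFN-γ and 0.58 (0.21 to 0.94, adjusted p = 0.220) without, and its interaction was -0.73 (-1.22 to -0.24, adjusted p = 0.431). Tgtp1 took 47.7%, 49.9% and 47.6% of the Tgtp pair in siR_Ctrl + IFN-γ libraries and 52.5%, 53.2% and 52.2% in siR_Nostrill + IFN-γ libraries. These shares did not overlap, whereas the Tgtp sum did, at 10786 to 12901 and 11468 to 12158 reads.

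**Figure D5:**
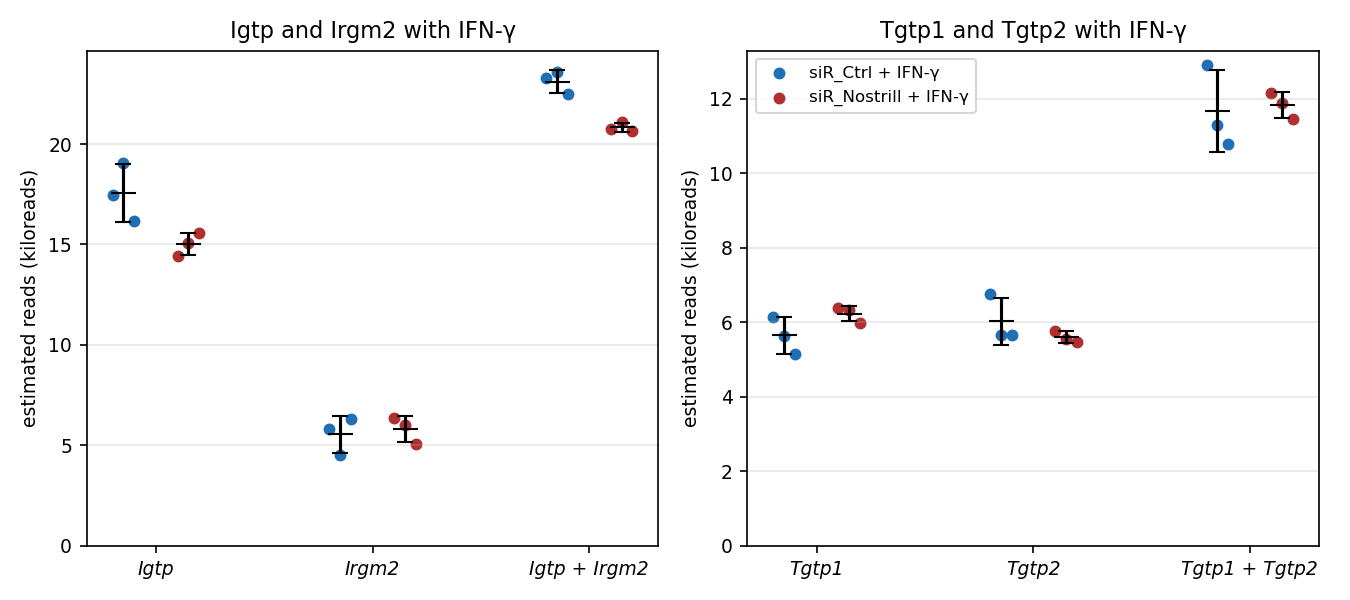
Estimated reads, in kiloreads, of Igtp, Irgm2 and their sum (left) and of Tgtp1, Tgtp2 and their sum (right) in the 3 libraries of each IFN-γ-treated group; points are libraries, and bars are the mean and SD. Irgm2 overlaps between the groups while the Igtp and Irgm2 sum lies at 22474 to 23594 reads in siR_Ctrl and 20631 to 21091 in siR_Nostrill libraries, not scaled to library size, and the Tgtp sum overlaps.

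The members lie in 3 places in the genome (RefSeq, GRCm38.p6). On chromosome 11, Irgm1 (gene ID 15944) spans 48865245 to 48871420, Gm12185 (620913) 48904656 to 48927182, Tgtp1 (21822) 48985329 to 48992246 and Tgtp2 (100039796) 49057196 to 49064212. Farther along, Igtp (16145) spans 58199556 to 58207592 and Irgm2 (54396) 58214977 to 58222783. Iigp1 (60440) and Gm4841 (225594) lie on chromosome 18, at 60373616 to 60392634 and 60268301 to 60273267. Genes of all 3 places rose with IFN-γ in both siRNA groups.

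The genes around the IRG system were read from lists of their roles. Of the receptor and transcription factors upstream, 11 were tested and 7 rose with IFN-γ in siR_Ctrl cells and 8 in siR_Nostrill cells, with medians of 2.31 and 1.77, where 4.71% and 5.24% of all genes rose. Between the siRNAs 1 of the 11 was called without IFN-γ and 1 with it, against 0.218% and 0.429% of all genes, and none in the interaction. Batf2, a transcription factor, rose from 0.0533 ± 0.0503 to 24.9 ± 3.78 FPKM in siR_Ctrl cells (SD, n = 3 each). Between the siRNAs, Irf9, an interferon regulatory factor, was higher in siR_Nostrill cells without IFN-γ, at 9.14 ± 1.09 against 6.16 ± 0.499 FPKM (SD, n = 3 each), or 0.58 on the log2 scale (SE 0.09, adjusted p = 0.0357, edgeR). That call held in 8 of 22 alternatives and in 2 of the 12 that left out a library, and its adjusted p reached 0.462 with only the groups compared. With IFN-γ, Ifngr2, a chain of the IFN-γ receptor, was higher at 50.9 ± 2.22 against 33.5 ± 0.389 FPKM (SD, n = 3 each), or 0.54 on the log2 scale (SE 0.09, adjusted p = 0.0375, edgeR). This one held in 11 of 22 alternatives and in 3 of the 12 with a library left out, with an adjusted p of up to 0.175 (without siR_Nostrill + IFN-γ replicate 2). Without IFN-γ, Ifngr2 lay in the same direction, at 43.6 against 33.9 FPKM, a log2 fold change of 0.39 (adjusted p = 0.15, edgeR). Its interaction was 0.15 (adjusted p = 0.514, edgeR), so the difference is not shown to be particular to IFN-γ-treated cells.

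Of the guanylate-binding proteins (GBPs), which also coat vacuoles, all 9 tested rose with IFN-γ in both siRNA groups, with median log2 fold changes of 6.65 and 6.40. Of all genes tested, 4.71% and 5.24% rose. None of the 9 was called between the siRNAs or in the interaction. The shares of all genes called there were 0.218% without IFN-γ, 0.429% with it and 0% in the interaction, so 0 of 9 is nothing particular to the GBPs. Of 6 other IRG-related genes tested, Gm12250, Gm5431 and 9930111J21Rik2 rose in both comparisons. The gene 9930111J21Rik1 had log2 fold changes of 2.28 in siR_Ctrl cells (adjusted p = 0.0641, edgeR) and 3.48 in siR_Nostrill cells (adjusted p = 0.0103), and its interaction was 1.20 (adjusted p = 0.487). Gm12250, which encodes the effector Irgb10, reached 16.6 ± 0.708 FPKM with IFN-γ after the control siRNA and 18.8 ± 1.39 after Nostrill siRNA (SD, n = 3 each). Of the ATG8 conjugation genes, whose products are needed to place IRG proteins on the vacuole, 0 of 11 were called with IFN-γ in either siRNA group, where 5.45% and 6.78% of all genes were, and their medians were 0.21 and -0.11. Among them, Atg3, which conjugates ATG8 proteins to lipid, was lower in siR_Nostrill + IFN-γ than in siR_Ctrl + IFN-γ cells, at 19.6 ± 0.994 against 31.6 ± 2.73 FPKM (SD, n = 3 each), or -0.75 on the log2 scale (SE 0.13, adjusted p = 0.0389, edgeR). The Atg3 call held in 10 of 22 alternatives and in 2 of the 12 with a library left out, with an adjusted p of up to 0.198 (without siR_Nostrill + IFN-γ replicate 1). Without IFN-γ, Atg3 lay in the same direction, at 24.3 against 31.5 FPKM, a log2 fold change of -0.34 (adjusted p = 0.313, edgeR). Its interaction was -0.41 (adjusted p = 0.43, edgeR). Of 10 ubiquitin and adaptor genes, Trim21 and Rnf31 rose with IFN-γ in both siRNA groups.

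The genes most like the family over the 12 libraries were sought by the correlation of log2 CPM with the mean standardized profile of the members. The 5 highest of 11892 other genes were Gbp2b (Pearson r = 0.9994), Apol6 (0.9981), Tvp23a (0.9981), Mpeg1 (0.9980) and Ifi47 (0.9977). The points are the 12 libraries, which fall into treated and untreated clusters, so a high r says mostly that a gene was low in one and high in the other, and 46 genes had an r above 0.99. Gbp2b, a GBP, came close to Igtp in level as well, with means of 2.77 and 517 FPKM in siR_Ctrl cells without and with IFN-γ, and 2.71 and 577 in siR_Nostrill cells.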

How the data were processed

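RNA-seq data of IEC4.1 cells (4 groups of 3 libraries, grouped by the sample labels) were used. The authors deposited, by gene and library, estimated counts that are not normalized. The authors also deposited FPKM, used here for levels, and TPM, which entered no test. According to the study's methods, SOAPnuke was used to clean the reads and HISAT2 and Bowtie2 to align them, and the submitters' processing notes name mm10 and GRCm38.p6. The counting tool is not given in the labels or methods used here. Reads that fit several genes had been divided between them, which makes counts of near copies uncertain.

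Estimated counts were rounded and fitted in edgeR 4.0.16 (R 4.3.3, quasi-likelihood, TMM) over all 12 libraries and the 11900 genes that passed its default expression filter. Adjustment was by Benjamini-Hochberg over those genes, and intervals are at 95%. Tested were the effect of IFN-γ for either siRNA, that of the Nostrill siRNA at rest and under IFN-γ, and the interaction. The alternatives were the Wald test of DESeq2 1.42.0, its size factors inside edgeR, an unfiltered table, limma 3.58.1 on log2(FPKM + 1) or log2(FPKM + 0.1), a fit of just those groups in a comparison, a block for replicate number, a gene length trend (lowess, span 0.3) taken out, Tgtp1 and Tgtp2 as 1 row, and each library left out. Igtp and Irgm2 as 1 row was added after the data had been seen. The scripts were tested on simulated counts.

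Every member is named, with up to 4 called genes of each list and the 5 genes most like the members (log2 CPM, prior count 2). One gene of the upstream list is not reported here by name. The members, lists and tests were chosen with earlier results of these data known. Libraries held 17824306 to 19093204 reads on genes. Promoters and positions are from RefSeq (GRCm38.p6) and transcripts from GENCODE vM21.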

Additional observations from a re-analysis of the deposited data

How the results depend on the processing

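In these alternatives, the number of IRG genes called stayed at 8 of 8 for IFN-γ in siR_Ctrl and in siR_Nostrill cells, and at 0 for the siRNA comparisons and the interaction. With a pair read as 1 row, it was 7 of 7 and 0. Depth limits what can be said of the 5 low genes at rest, which had at most 24.6 reads in a library. The numbers of all genes called moved more, and the cause was not tested. For IFN-γ in siR_Ctrl cells, 649 genes were called, 341 with only the groups compared and 1329 with the length trend removed, and 489 to 589 with a library left out. For IFN-γ in siR_Nostrill cells, 807 were called, 1330 by DESeq2, 1997 with only the groups compared, 2215 with the length trend removed, and 491 to 1138 with a library left out. For siR_Nostrill without IFN-γ, 26 were called, 265 by DESeq2, 0 with only the groups compared, 419 with the length trend removed, and 0 to 37 with a library left out. For siR_Nostrill with IFN-γ, 51 were called, 596 by DESeq2, 30 without a filter, 111 and 92 by limma with a pseudocount of 1 and 0.1, 0 with only the groups compared, 1521 with the length trend removed, and 0 to 72 with a library left out.

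Whether replicate numbers pair the libraries was not settled. The correlation of same-numbered libraries' deviations from their group means ran from -0.495 to 0.725, and 8 of 18 were above 0.1. A pair with different numbers, siR_Ctrl replicate 1 and siR_Ctrl + IFN-γ replicate 3, reached 0.769. Deviations from the mean of so few libraries depend on each other, so these correlations cannot decide the question. With the replicate block, 32 genes were called for siR_Nostrill with IFN-γ, and 18 without IFN-γ. For the IFN-γ effect it called 644 genes in siR_Ctrl and 943 in siR_Nostrill cells, where the main fit called 649 and 807. The block changed no call of an IRG gene. With only the groups compared, no interaction could be fitted.

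Signs changed for values near 0 and, in genes with few resting reads, also for larger values. With IFN-γ, Gm4841 was 0.04 in both limma fits and from -0.06 to 0.02 with a library left out. Gm12185 was -0.06 with the length trend removed and from -0.08 to 0.05 with a library left out, and Irgm2 ran from -0.03 to 0.14. The Irgm1 interaction was 0.07 and 0.06 by limma, 0.09 with the length trend removed, and from -0.06 to 0.03 with a library left out. Without IFN-γ, leaving out siR_Ctrl replicate 3 turned the sign of Iigp1 (range over libraries left out -1.54 to 4.49), Tgtp1 (-2.51 to 0.94), Tgtp2 (-6.06 to 1.88) and Gm4841 (-0.85 to 1.25), and of their interactions (-4.33 to 1.70, -0.80 to 2.65, -1.99 to 5.95 and -1.27 to 0.82).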
